A study of Homo sapiens with 9 samples.

Results

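The SLCO genes encode organic anion transporting polypeptides (OATPs), membrane carriers that bring bulky, often negatively charged compounds into cells. The 7 genes described here are SLCO1A2, SLCO1B1, SLCO1B3, SLCO2A1, SLCO2B1, SLCO3A1 and SLCO4A1. They were chosen as members of the family, some of which carry taxanes, and every probe set annotated to one of them alone was taken, which gave 12 of the 22215 human probe sets and 7 of the 11963 genes on the array. The 3 groups of MDA-MB-231 cells, a breast cancer line, were compared on Affymetrix HU133A arrays, with 3 arrays a group from separate passages. Per the sample descriptions all 3 groups were kept with verapamil (1 µM), a heart drug known to inhibit the efflux pump P-glycoprotein. The sensitive cells had nothing more, the docetaxel-resistant line was grown in docetaxel at 2 nM, and the paclitaxel-resistant line in paclitaxel at 7 nM. Each resistance was represented by 1 line, so the errors and p-values cover the spread between passages, not between separately selected lines. Drug in the medium and selected line cannot be told apart. The treatment protocol, unlike the sample descriptions, names verapamil for the sensitive cells alone. Should that hold, verapamil would also differ between sensitive and resistant cells in every such comparison, and its part cannot be told apart from the rest.

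OATPs exchange their substrates across the membrane without using ATP, in contrast to efflux pumps such as P-glycoprotein. OATP1B1 and OATP1B3 (SLCO1B1, SLCO1B3) sit on the blood side of liver cells, where they take up bile acids, statins and taxanes, and OATP1A2 (SLCO1A2) is known from brain capillaries and bile ducts. OATP2A1 (SLCO2A1) is the prostaglandin transporter, OATP2B1 (SLCO2B1) takes up steroid sulphates, and OATP3A1 and OATP4A1 (SLCO3A1, SLCO4A1) are found in many tissues, with prostaglandins and thyroid hormones among their substrates.

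In brief, SLCO4A1 fell from a strong signal to a weak one in both resistant lines, by 4.93 and 4.17 on the log2 scale. SLCO3A1 was the only other member with a called difference, and its signal was weak in all 3 groups. The 9 probe sets of SLCO1A2, SLCO1B1, SLCO1B3, SLCO2A1 and SLCO2B1 stayed below an intensity of 60 on every array and did not pass the test in any comparison. All values are probe set intensities in arbitrary units, and differences are on the scale of log2(intensity + 16) after quantile normalization, which understates changes of weak probe sets. A difference is called where its adjusted p in limma's moderated test, corrected by Benjamini and Hochberg over all 22215 probe sets, is below 0.05.

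The arrays had median intensities from 33.7 to 43.9, and 24.0% to 27.0% of probe sets lay under an intensity of 16. Normalized arrays of the same group correlated across probe sets at r = 0.970 to 0.991, and arrays of different groups at 0.901 to 0.981. Of the 8 markers listed for the line, each had a mean over all arrays of at least 313. VIM (vimentin) fell in both lines, from a mean of 8335 to 4682 and 5223. Of 12 markers of luminal breast cells ESR1, PGR and EPCAM had means of at most 42.2, while KRT19 had the highest mean over all arrays, 1522, and the median of the means was 88.3. The GAPDH 3' minus 5' log2 difference, a sign of RNA quality, ran from 0.0145 to 0.0389 in sensitive arrays, 0.00665 to 0.130 in docetaxel-resistant and 0.0935 to 0.201 in paclitaxel-resistant ones. The same difference for ACTB ran from -0.261 to -0.0173, from -0.150 to -0.108 and from -0.125 to 0.172 in these groups. The bioC control probe set read 352 on sensitive replicate 3, against 89.9 to 148 on the other arrays. The part of these measures in the results was not tested.

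SLCO4A1 lies on chromosome 20 and had 1 probe set, 219911_s_at. Its intensities were 2247, 2019 and 2024 on the sensitive arrays, 29.5, 87.2 and 72.8 on the docetaxel-resistant ones, and 118, 72.5 and 117 on the paclitaxel-resistant ones. Every resistant array lay far below every sensitive one, and the arrays of the resistant lines overlapped. The group means were 2097 ± 130 (SD, n = 3), 63.2 ± 30.1 and 103 ± 26.2, so the sensitive mean was 33.2 times the docetaxel-resistant one and 20.4 times the paclitaxel-resistant one. These ratios take the intensities as deposited. The docetaxel-resistant mean lay within the range of 4.81 to 93.1 that genes of other tissues had on these arrays, apart from MBP at 348. The paclitaxel-resistant mean lay above that range and below MBP. The distance of both means from background is thus not known. On the log2 scale SLCO4A1 fell by 4.93 ± 0.24 (SE, adjusted p = 8.61e-08 by limma) in the docetaxel-resistant line and by 4.17 ± 0.24 (adjusted p = 6.16e-07) in the paclitaxel-resistant line. Among all 22215 probe sets these were the decreases of rank 10 and rank 19. Both calls held in all 18 alternatives that gave a value, with values from -5.30 to -4.19 and from -4.36 to -3.70. The probe set's suffix marks probes that can match more than 1 transcript, and the gene had no other probe set to set beside it.

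**Figure D1:**
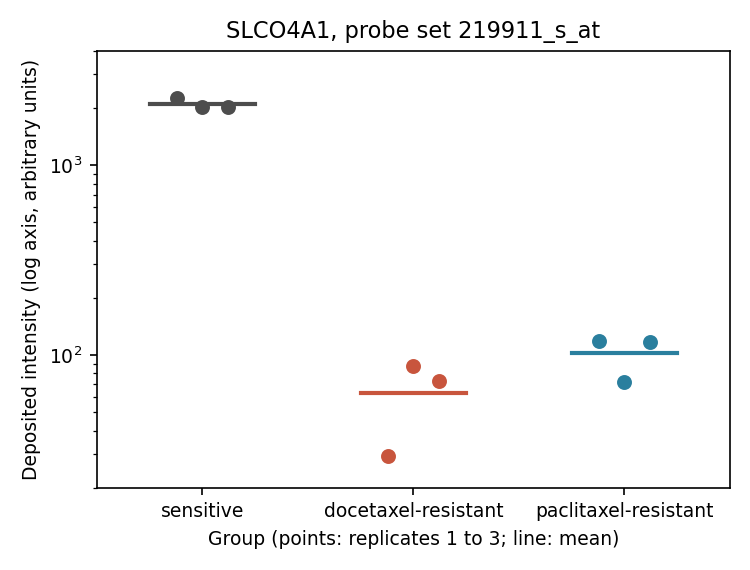
Deposited intensity of the SLCO4A1 probe set on each of the 9 arrays (log axis, arbitrary units), by group, with a line at each group's mean. The 3 sensitive arrays lie between 2019 and 2247, and the 6 resistant arrays between 29.5 and 118.

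Between the resistant lines SLCO4A1 stood 0.76 higher in the paclitaxel-resistant one (95% interval 0.23 to 1.29). That difference was not called over all probe sets (unadjusted p = 0.00925, adjusted p = 0.176 by limma), and its value ran from 0.44 to 1.00 over the alternatives, none of which called it. The docetaxel-resistant arrays spread widely on the log2 scale, with replicate 1 at 29.5. The SD was 0.57, against 0.30 in the paclitaxel-resistant line and 0.059 in sensitive cells. The error behind the interval and p is shared by all 3 groups, sensitive cells included. It thus understates the spread of the docetaxel-resistant arrays. The order of the levels was thus sensitive, then paclitaxel-resistant, then docetaxel-resistant, with the last pair not separated by the test. The resistant means share the same sensitive arrays, so the values of both lines against sensitive cells are not independent of each other.

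No measured gene beside SLCO4A1 fell nearly as far. Of the 10 measured neighbours on chromosome 20, 5 on each side in order of position, OSBPL2 and COL9A3 rose and ADRM1 fell in the docetaxel-resistant line, and LAMA5 and COL9A3 rose and ADRM1 fell in the paclitaxel-resistant line. All 10 neighbours lay between -0.74 and 0.71 in the former and between -0.62 and 0.72 in the latter. ADRM1, a ubiquitin receptor of the proteasome, fell by 0.74 (adjusted p = 0.00366) and by 0.62 (adjusted p = 0.00959). COL9A3, a collagen chain of cartilage, rose by 0.71 and 0.65 from a mean intensity of only 4.02. The directly adjacent measured genes were the ribosomal protein gene RPS21 (-0.20 and -0.29) and NTSR1, a neurotensin receptor (0.04 and -0.11), and neither was called. The calls of OSBPL2 and LAMA5 ended with single arrays left out, at adjusted p up to 0.103 and 0.133. For comparison, 20.2% and 21% of all genes were called in the docetaxel and paclitaxel comparisons.

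**Figure D2:**
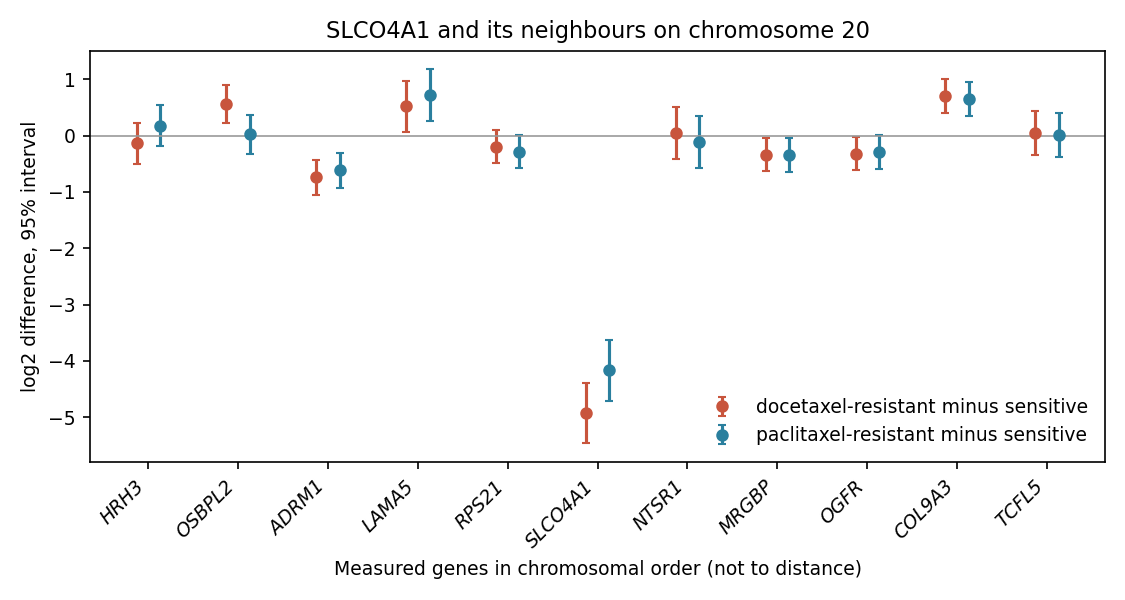
Log2 differences with 95% intervals for SLCO4A1 and the 5 measured genes on each side of it on chromosome 20, in chromosomal order, for the docetaxel-resistant and paclitaxel-resistant lines against sensitive cells. SLCO4A1 stands at -4.93 and -4.17, and its neighbours between -0.74 and 0.72.

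The genes whose normalized levels followed SLCO4A1 most closely over the 9 arrays, among 5981 genes at or above the median level, were S100A2, a calcium-binding protein (r = 0.987), TFPT (r = 0.985), CCDC22 (r = 0.984), the mitochondrial dehydrogenase HSD17B10 (r = 0.984) and the mitochondrial protease HTRA2 (r = 0.982). These correlations describe 9 arrays that fall into sensitive and resistant ones, so any gene with a clear step between them ranks high. The steps themselves were smaller than that of SLCO4A1: S100A2 stood at -2.24 and -1.90, and CCDC22 at -1.78 and -1.23, in the docetaxel- and paclitaxel-resistant lines.

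SLCO3A1, on chromosome 15, had 2 probe sets, and both were weak. Probe set 210542_s_at read 44.5, 37.7 and 43.1 on the sensitive arrays, 27.9, 27.8 and 34.4 on the docetaxel-resistant ones and 37.0, 39.9 and 42.1 on the paclitaxel-resistant ones. The docetaxel-resistant arrays all lay below the sensitive ones, whereas the intensities of paclitaxel-resistant and sensitive arrays overlapped. It fell by 0.46 ± 0.13 (SE, n = 3, adjusted p = 0.0250 by limma) in the docetaxel-resistant line and stood at -0.14 ± 0.13 (adjusted p = 0.534) in the paclitaxel-resistant line. The difference between the lines, 0.32 (95% interval 0.05 to 0.60), was not called (adjusted p = 0.290). The docetaxel call ended without normalization (-0.33, adjusted p = 0.110) and without sensitive replicate 1 or 2 or docetaxel-resistant replicate 1 or 2, at adjusted p from 0.0536 to 0.0882.

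The second SLCO3A1 probe set, 219229_at, read 14.2, 6.01 and 24.6 on the sensitive arrays. It was listed at 0 on all docetaxel-resistant arrays and at 0, 0 and 0.01 on the paclitaxel-resistant ones. The sensitive values were thus low and uneven, and the resistant ones were at or next to 0. The fit gave -0.92 ± 0.19 in both lines (adjusted p = 0.00494 and 0.00468 by limma). Its error is shared by all groups, while the log2 SD was 0.43 in sensitive cells and 0 and 0.00058 in the resistant lines. The error and p-values thus understate the spread of the sensitive arrays. The size depends on the added constant: it was -3.84 and -3.83 with a pseudocount of 1 and -0.30 in both with 64. Both calls held in all 17 alternatives that gave a value. Among all probe sets 13 lay under 0.1 on all 6 resistant arrays, and 2 of these, this one included, lay above 5 on all 3 sensitive arrays, a count made after the values were seen. Exact zeros occurred in 463 probe sets on at least 1 array. Whether a zero of a weak probe set means that its transcript was absent was not tested.

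SLCO3A1 was the only member with both a called probe set and a promoter in the RefSeq-based table (GRCh38.p14), so its sequence is shown. The 250 bases before its first listed start, chr15:91853458-91853707 on the plus strand, held 32 CG dinucleotides, set in capitals, and 80.4% G or C. Of 35116 promoters of this length 9.52% held at least as many, and the median was 11.
SLCO3A1: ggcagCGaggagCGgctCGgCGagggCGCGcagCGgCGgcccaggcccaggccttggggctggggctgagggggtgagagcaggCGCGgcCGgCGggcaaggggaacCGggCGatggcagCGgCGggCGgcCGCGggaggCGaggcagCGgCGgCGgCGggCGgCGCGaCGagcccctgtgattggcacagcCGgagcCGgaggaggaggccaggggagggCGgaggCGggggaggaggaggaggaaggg

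Among the 10 measured neighbours of SLCO3A1 on chromosome 15, IGF1R, the receptor of insulin-like growth factor 1, rose by 1.01 in the docetaxel-resistant line (adjusted p = 0.0198), a call that ended with some single arrays left out (adjusted p up to 0.0755). It stood at 0.71 (adjusted p = 0.0838) in the paclitaxel-resistant line, and the other 9 were not called in either line. The genes most like 210542_s_at over the 9 arrays were CDC20, an activator of the anaphase-promoting complex (r = 0.957), S100A3 (r = 0.952), the nuclear pore gene NUP188 (r = 0.938), LEPROTL1 (r = 0.931) and the spindle protein TACC3 (r = 0.931).

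The liver-type carriers SLCO1B1 and SLCO1B3 and the related SLCO1A2 are neighbours among the measured genes of chromosome 12. SLCO1B1 (210366_at) read 12.2 to 14.7 in sensitive cells, 11.6 to 16.1 in the docetaxel-resistant and 9.75 to 14.5 in the paclitaxel-resistant line. All 3 groups overlapped, and the differences were -0.04 (95% interval -0.33 to 0.25) and -0.06 (-0.35 to 0.23). SLCO1B3 (206354_at) read 12.6, 10.6 and 6.39 in sensitive cells, 4.94, 9.63 and 28.0 in the docetaxel-resistant and 14.3, 8.21 and 2.47 in the paclitaxel-resistant line. Its highest array, docetaxel-resistant replicate 3, stood apart from the other 2 of its group, and the differences were 0.12 (-0.43 to 0.66) and -0.12 (-0.66 to 0.43). Without that array the docetaxel difference was -0.17.

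The promoters of SLCO1B1 and SLCO1B3 are shown because they differ plainly from that of SLCO3A1 in base composition. The 250 bases before the start of SLCO1B1 (chr12:21130944-21131193, plus strand, GRCh38.p14) held 29.2% G or C, and those of SLCO1B3 (chr12:20810455-20810704, plus strand) held 28.4%. Neither held a CG, which would be set in capitals. Few CG were not particular to this pair, since the listed promoters of SLCO1A2 held 0 and 2 and those of SLCO2B1 held 2 and 5. An end-to-end alignment of the pair had 182 identical bases in 274 positions (66.4%).
SLCO1B1: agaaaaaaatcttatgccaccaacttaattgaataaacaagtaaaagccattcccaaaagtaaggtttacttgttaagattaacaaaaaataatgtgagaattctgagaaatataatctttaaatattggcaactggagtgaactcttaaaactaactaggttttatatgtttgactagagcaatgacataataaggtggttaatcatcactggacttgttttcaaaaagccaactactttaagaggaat
SLCO1B3: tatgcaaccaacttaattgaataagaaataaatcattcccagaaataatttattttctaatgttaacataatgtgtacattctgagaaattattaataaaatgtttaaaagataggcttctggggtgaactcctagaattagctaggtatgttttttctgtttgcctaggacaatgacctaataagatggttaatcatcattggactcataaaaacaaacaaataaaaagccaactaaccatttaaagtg

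SLCO1A2 had 3 probe sets. Probe set 211481_at read 33.5, 29.3 and 34.99 in sensitive cells, 24.4, 28.6 and 17.6 in the docetaxel-resistant line and 33.1, 31.9 and 31.1 in the paclitaxel-resistant line. The docetaxel-resistant arrays lay below the sensitive ones, yet the difference of -0.40 ± 0.14 did not pass the test (adjusted p = 0.0652 by limma), nor did that of -0.08 in the paclitaxel-resistant line. It was not called under any alternative. Probe set 207308_at read 17.7 to 48.7, 27.8 to 53.8 and 30.0 to 44.7 in the 3 groups and stood at -0.05 and -0.04. Probe set 211480_s_at stood at -0.04 and -0.23 with intensities from 6.26 to 19.7. Of the 8 non-member neighbours of SLCO1A2 only PLEKHA5 was called, at 0.54 in the paclitaxel-resistant line (adjusted p = 0.0202), and its call ended with some single arrays left out (adjusted p up to 0.0737).

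SLCO2A1, the prostaglandin carrier on chromosome 3, read 33.4, 40.6 and 32.6 in sensitive cells, 37.6, 40.7 and 39.8 in the docetaxel-resistant and 51.0, 31.4 and 53.0 in the paclitaxel-resistant line. Of the paclitaxel-resistant arrays 2 were the highest of all 9 and the other one the lowest, and the differences were -0.04 (95% interval -0.40 to 0.32) and 0.13 (-0.23 to 0.49). Of the 10 measured neighbours of SLCO2A1, 2 were called in the docetaxel and 3 in the paclitaxel comparison, against 20.2% and 21% of all genes. In the docetaxel-resistant line RYK, a receptor of Wnt ligands, rose by 1.38 (adjusted p = 0.00531) and AMOTL2, an angiomotin, by 0.82 (adjusted p = 0.00693). In the paclitaxel-resistant line RYK rose by 0.98, AMOTL2 by 0.70 and ANAPC13, a subunit of the anaphase-promoting complex, by 0.72. With a single array left out their adjusted p rose to up to 0.122, 0.0602 and 0.116. Without _x_at and _s_at probe sets ANAPC13 stood at -0.0170. SLCO2B1, on chromosome 11, had 3 probe sets with intensities from 7.98 to 46.7. Their differences were 0.04, -0.18 and -0.02 in the docetaxel-resistant and 0.02, -0.27 and -0.21 in the paclitaxel-resistant line, and none was called. Of the 10 measured neighbours of SLCO2B1, ARRB1, an arrestin, fell by 0.60 in the docetaxel-resistant line (adjusted p = 0.0147, up to 0.0519 with an array left out). SERPINH1, a collagen chaperone, fell by 0.93 in the paclitaxel-resistant line (adjusted p = 0.00224). None of the others was called in either line. The widest spread among the SLCO2B1 values was that of 203473_at in the paclitaxel-resistant line, at 46.7, 12.7 and 28.8.

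**Figure D3:**
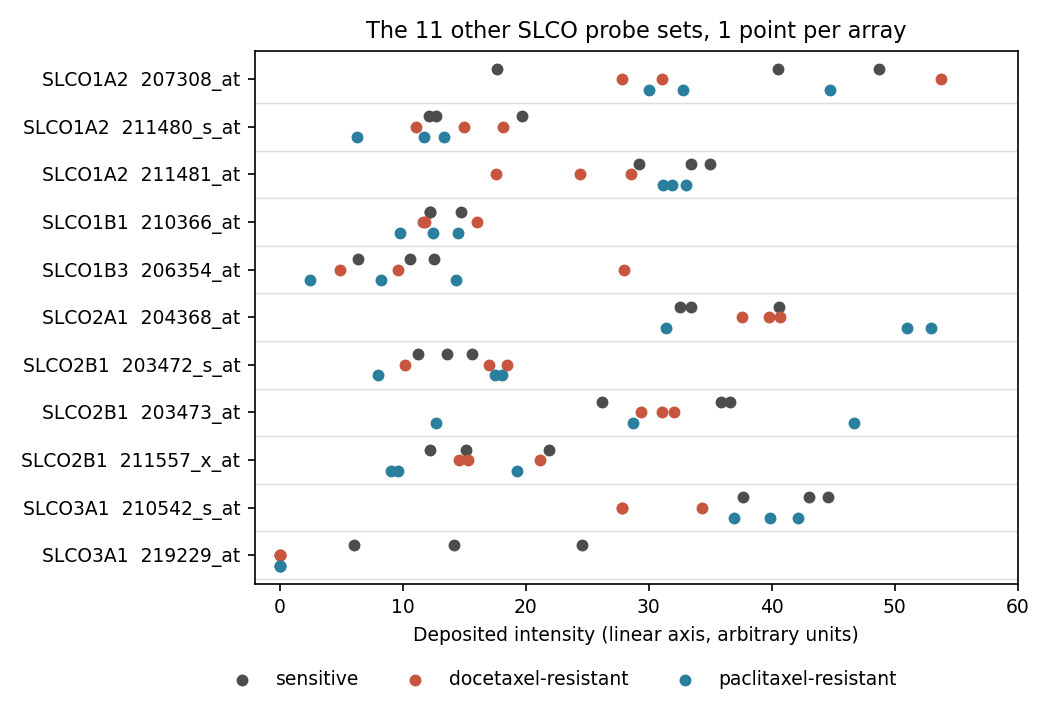
Deposited intensity of the 11 probe sets of the 6 members other than SLCO4A1 on each array (linear axis, arbitrary units), coloured by group. All values lie below 60, and the groups overlap in most rows, while 219229_at lies at 0 to 0.01 on the 6 resistant arrays.

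Over the 12 probe sets 3 were called in the docetaxel comparison, all lower, 2 in the paclitaxel comparison, all lower, and 0 between the lines. Of all 22215 probe sets 17.7% were called in the docetaxel comparison (8.32% lower, 9.34% higher), 18.6% in the paclitaxel comparison (9.37% lower, 9.21% higher) and 1.6% between the lines (0.801% lower and 0.801% higher). The called members were SLCO4A1 and the weak SLCO3A1. Between the lines limma gave an unadjusted p below 0.05 for 3 of the 12, against 12.2% of all probe sets, SLCO4A1 among them (0.00925, with 0.0248 for 210542_s_at and 0.0399 for 211481_at of SLCO1A2). The normalized arrays of the groups did not overlap in 4 of the 12 in each comparison with sensitive cells, all of them lower, against 34.2% and 32.1% of all probe sets (18.9% and 17.2% lower), and in 2 between the lines, both higher in the paclitaxel-resistant one, against 19.3% (9.23% higher). For paclitaxel, 210542_s_at and 211481_at counted here only after normalization, since their deposited intensities overlapped. Their nearest sensitive and paclitaxel-resistant arrays stood at 5.88 against 5.87 and at 5.62 against 5.61. The median difference of the 12 was -0.05 in the docetaxel and -0.13 in the paclitaxel comparison, and over all probe sets -0.05 and -0.03. A p that misses the threshold does not show equal levels. On this scale a doubling from the sensitive mean would read 0.47 to 0.76 in the 9 probe sets not called for docetaxel. The intervals of 8 lay below their doubling and those of 5 above their halving, as did those of 10 and 5 of the 10 not called for paclitaxel.

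**Figure D4:**
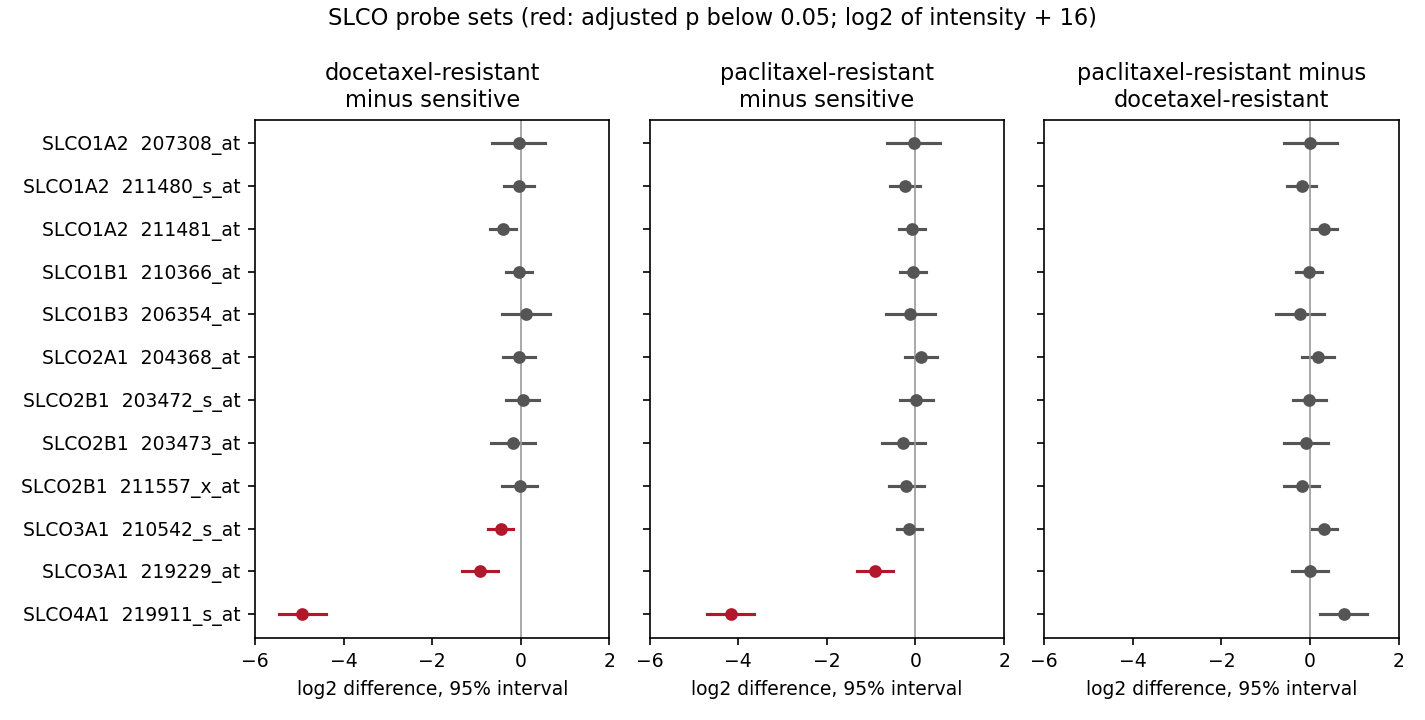
Log2 differences with 95% intervals for the 12 SLCO probe sets in the 3 comparisons, on the scale of log2(intensity + 16), with called ones in red. SLCO4A1 stands at -4.93 and -4.17, the called SLCO3A1 differences lie between -0.92 and -0.46, and no probe set is called between the resistant lines.

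Of 24 genes of other tissues listed as a measure of background, 19 were measured. Their mean intensities had a median of 17.6 and ran from 4.81 to 93.1, apart from MBP, whose mean was 348 and which rose in both lines. PRL fell by 0.54 in the paclitaxel-resistant line (adjusted p = 0.0195, and up to 0.0679 with a single array left out). The 11 probe sets of the 6 members other than SLCO4A1 had means from 4.98 to 40.0. Probes differ in how strongly they bind, so no order among genes was read from these levels. In a bulk culture, fewer cells with a transcript and less transcript per cell cannot be told apart.

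A further 3 SLCO genes had probe sets, and none was called in any comparison. SLCO1C1, a thyroid hormone carrier of brain capillaries, read 7.46 to 21.3 over the 9 arrays, the 2 probe sets of SLCO4C1, a kidney carrier, read 0.01 to 14.7, and SLCO5A1 read 0.04 to 10.1.

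Other routes for the same compounds were described by lists of genes. Of all 11963 genes 10.4% rose and 9.8% fell in the docetaxel comparison, 10.5% rose and 10.4% fell in the paclitaxel comparison, and 1.88% were called between the lines (0.945% higher, 0.936% lower in the paclitaxel-resistant one). Of 10 measured SLC22 carriers, which move organic ions, SLC22A5, the carnitine carrier, rose in both lines, by 0.92 ± 0.13 (adjusted p = 0.000653) and 0.73 ± 0.13 (adjusted p = 0.00262). SLC22A4 fell by 0.54 in the paclitaxel-resistant line (adjusted p = 0.0176, and up to 0.0670 with a single array left out) and stood at -0.38 in the other. None of the 4 measured bile acid carriers was called. Of 9 efflux pumps ABCB1, which encodes P-glycoprotein, rose by 5.41 ± 0.19 and 1.72 ± 0.19. Its sensitive arrays read only 5.43 to 10.37, and over the alternatives the sizes ran from 3.86 to 6.90 and from 0.81 to 2.91, all of them called. ABCB4 rose by 1.95 in the docetaxel-resistant line and was not called in the other (-0.11). Between the lines both genes were lower in the paclitaxel-resistant one. ABCB1 stood at -3.69 (adjusted p = 1.64e-06 by limma) and ABCB4 at -2.06 (adjusted p = 0.000810). ABCC10, a taxane-transporting pump, fell (-0.51 and -0.56), calls that ended with some single arrays left out (adjusted p up to 0.132 and 0.0693). Of 6 genes of taxane metabolism POR, the electron donor of cytochromes P450, rose by 0.58 in the paclitaxel-resistant line (adjusted p = 0.0185, and up to 0.0720 with an array left out). It also stood 0.70 above the docetaxel-resistant line (adjusted p = 0.0436 by limma, up to 0.159 with an array left out). CYP3A4, CYP3A5 and CYP2C8 were not called.

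Genes that handle the carriers' known substrates were read in the same way. Of 21 prostaglandin genes 3 fell and 1 rose in the docetaxel comparison, and 2 fell in the paclitaxel comparison. Of all genes 20.2% and 21% were called in these comparisons, so the list held no excess of calls. TBXAS1, the thromboxane synthase, fell in both lines, to -2.73 ± 0.19 (adjusted p = 2.72e-06) and -2.40 ± 0.19 (adjusted p = 8.98e-06) against sensitive cells, from a mean intensity of 355 to 44.4 and 56.4. PTGES, which makes prostaglandin E, fell by 0.88 ± 0.18 (adjusted p = 0.00585) and by 1.39 ± 0.18 (adjusted p = 0.000325). PTGIS fell by 0.52 and the receptor PTGER4 rose by 0.62 in the docetaxel-resistant line, with adjusted p up to 0.120 and 0.0858 when an array was left out. The median of the list was -0.18 and -0.10, and over all genes -0.05 and -0.02. Of 10 thyroid hormone genes SLC3A2, the heavy chain of amino acid and thyroid hormone carriers, fell by 1.04 ± 0.19 (adjusted p = 0.00295) and by 0.68 ± 0.19 (adjusted p = 0.0286). The latter call ended with some single arrays left out (adjusted p up to 0.103).

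Of 13 steroid sulphate and steroid dehydrogenase genes, HSD17B4 rose by 1.76 ± 0.20 and 1.74 ± 0.20 (adjusted p = 0.000107 in each) and HSD17B7 by 1.06 ± 0.13 and 1.19 ± 0.13. The sulphatase STS and the sulphotransferases SULT1E1 and SULT2A1 were not called. PAPSS2, which makes the sulphate donor, rose by 0.60 in the docetaxel-resistant line (adjusted p = 0.0188, up to 0.0807 with an array left out). Between the lines it stood at -0.77, lower in the paclitaxel-resistant one (adjusted p = 0.0311 by limma, up to 0.119 with an array left out). ARSL fell by 0.61 in the paclitaxel-resistant line (adjusted p = 0.0160, up to 0.0575). Of 13 measured regulators of liver transporter genes 3 rose in the docetaxel comparison, and 3 rose and 1 fell in the paclitaxel comparison. The shares called among all genes were 20.2% and 21%. FOXA1, a pioneer factor, rose by 0.78 and 1.02 from a mean intensity of 5.74, and AHR, the dioxin receptor, rose by 0.93 and 0.90, with adjusted p up to 0.0816 and 0.0824 when an array was left out. CEBPA rose by 0.61 in the docetaxel-resistant line (up to 0.134), and in the paclitaxel-resistant line PPARA rose by 0.55 (up to 0.136) and CEBPB fell by 0.73 (up to 0.0615).

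PDZ proteins hold several OATPs at the membrane. Of 4 measured, NHERF2 fell by 1.11 ± 0.21 (adjusted p = 0.00321) and by 0.66 ± 0.21 (adjusted p = 0.0462), the second call ending with single arrays left out (adjusted p up to 0.176). NHERF1 fell by 0.62 ± 0.14 in the docetaxel-resistant line (adjusted p = 0.00980), a call that ended without normalization, and stood at -0.34 (adjusted p = 0.132) in the other. PDZK1 was not called. Of 6 measured genes of proton and bicarbonate exchange, on which OATP uptake can depend, CA12, a membrane carbonic anhydrase, rose by 0.59 ± 0.14 in the docetaxel-resistant line (adjusted p = 0.0115). Between the lines it stood at -0.89, lower in the paclitaxel-resistant one (adjusted p = 0.00830).

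Marker sums moved with the groups in part. The 8 markers of the line summed to 20964 to 24727 in sensitive, 17735 to 19434 in docetaxel-resistant and 19600 to 21107 in paclitaxel-resistant arrays, with VIM lower in both lines, CD44 lower in the docetaxel comparison (adjusted p = 0.0480, up to 0.156 with an array left out) and EGFR higher in both. The signs of CD44 in the docetaxel comparison and of EGFR in both turned when probe sets with the suffix _x_at or _s_at were left out. The summed intensity of 10 hepatocyte markers was 653 to 786 in sensitive, 361 to 428 in docetaxel-resistant and 430 to 474 in paclitaxel-resistant arrays. Of these SERPINA1 fell in both lines, each call holding in 18 of 19 alternatives. Its probe set without a suffix stood at only 0.18 in the docetaxel and -0.20 in the paclitaxel comparison. APOH rose in the paclitaxel comparison (adjusted p = 0.0412, up to 0.157 with an array left out), and ALB and TTR had mean intensities of at most 30.6 and 23.8. The sum of 7 endothelial markers was 146 to 214, 105 to 114 and 101 to 117, with PECAM1 at -1.02 in both lines and VWF and CDH5 at means of at most 5.40. The sum of 12 luminal markers was 2138 to 2659, 2963 to 3357 and 3297 to 4362, with TFF3, FOXA1, SPDEF and AGR2 higher in both lines and TFF1 in the paclitaxel comparison. The call of AGR2 in the docetaxel comparison ended with some single arrays left out (adjusted p up to 0.0683), as did that of SPDEF (up to 0.0510). The 8 blood cell markers summed to 1264 to 2247, 2320 to 2786 and 1197 to 1878, with LCP1 higher in both lines. The sum of 10 fibroblast markers was 368 to 406, 529 to 678 and 393 to 499. Of these PDGFRB rose by 1.04 and 1.11 and FBN1 by 1.98 in the docetaxel comparison, while COL6A3 stood at -1.36 and -1.05. The median difference of the fibroblast list was -0.11 and -0.14. No marker was at 0 on all arrays, and the part of these shifts in the SLCO4A1 decrease was not tested.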

How the data were processed

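Total RNA of 9 cultures was hybridized to Affymetrix arrays, 3 per group. The values used are probe set intensities on a linear scale, as deposited by the authors, 1 column per array. Per the submitters' processing notes they were made with Affymetrix Expression Console 1.1.2 and PLIER; how background was corrected and whether arrays were scaled to each other is not stated there. With arrays, precision is limited by their number.

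Of 22283 probe sets 68 controls were left out. Among the remaining 22215 the platform annotation gave 1 gene for 19065, more than 1 for 1043 and no gene for 2107, and symbols were updated through RefSeq gene identifiers (19053 matched). Intensities became log2(intensity + 16), and the arrays, whose medians differed by 0.27 on this scale before, were quantile-normalized. A linear model with 3 group means was fitted to all 22215 probe sets in R 4.3.3 with limma 3.58.1 (lmFit and eBayes, residual df 6, prior df 5.82), with 3 contrasts, two-sided tests and Benjamini-Hochberg adjustment within a contrast. Genes outside the members were read from their probe set of highest mean, 1 per gene, with the same fit.

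Named were all members, up to 4 called genes of each list (smallest adjusted p), the 5 genes most like a called member, called neighbours and ABCB1. Further list genes, markers and uncalled neighbours in the text were picked with their values in view. The members, lists and tests were chosen with earlier results of these data known. Arrays were not duplicates: at most 0.0945% of probe sets held the same value above 0 in a pair.

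On simulated arrays with 22215 probe sets for the docetaxel comparison, changes of 0.5, 1 and 2 were recovered in 1.49%, 64.2% and 100% of 67, 67 and 66 probe sets, with 4 unchanged ones among 114 called. Only these few probe sets were changed, whereas 3922 were called in the data. The adjusted threshold grows looser with the number of changed probe sets, so the recovered shares do not carry over to the data. Promoters came from a RefSeq-based table (GRCh38.p14) that held 5 of the 7 members; SLCO4A1 and SLCO2A1 had no entry. The alternatives were pseudocounts of 1 and 64, no normalization, median scaling, a filter at the median level, 1 probe set per gene, no _x_at or _s_at probe sets, another moderation, fits of 2 groups, a replicate block and each array left out.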

Additional observations from a re-analysis of the deposited data

How the results depend on the processing

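SLCO4A1 kept its direction and its call against sensitive cells under every alternative that gave a value, and with an array left out its differences ran from -5.17 to -4.61 (docetaxel) and from -4.30 to -4.01 (paclitaxel). It has no probe set without the suffix _s_at, so that alternative gave no value for it. Of 12 member probe sets 3 were called for docetaxel and 2 for paclitaxel. With an array left out the numbers were 2 to 3 and 2. They were 1 and 1 with the filter at the median level, and 1 and 1 without _x_at and _s_at probe sets, and for paclitaxel 1 with 1 probe set per gene; in these, fewer member probe sets were tested. For the members 5 alternatives ended a call, all of 210542_s_at of SLCO3A1. A direction was compared only where a value was called: 46 uncalled member values changed sign between alternatives.

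Replicate numbers were not taken to pair the arrays, since same-numbered arrays deviated together at r = -0.40 to 0.29, with 3 of 9 pairs above 0.1, and other pairs at -0.43 to 0.43. With the replicate block the member counts stayed 3, 2 and 0 and SLCO4A1 stood at -4.93 and -4.17, while 214 in place of 356 probe sets were called between the lines (and 3596 and 3821 in place of 3922 and 4128 against sensitive cells). Without _x_at and _s_at probe sets, other probe sets gave the opposite sign for CD44 (0.0117, docetaxel), EGFR (-0.0503 and -0.16), SERPINA1 (0.18 for docetaxel and -0.38 between the lines), ANAPC13 (-0.0170, paclitaxel) and LEPROTL1 (0.40, docetaxel). Without normalization 66.1% of the calls for docetaxel were higher, against 52.9%, and between the lines 39.1% of 215, against 50% of 356. With a pseudocount of 1, 84 probe sets were called between the lines. Detection calls were not used, so values near background, such as ABCB1 in sensitive cells, are given as fitted and depend on the pseudocount.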
